A study of Sus scrofa with 4 samples.

Results

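The genes described here are the potassium channel genes of pig skin epithelium, taken as every gene of the deposited count table whose name starts with KCN. The table held 94 of them among 29837 named genes, and the 49 with 10 or more counts in at least 2 libraries are reported one by one or by range. They were read in epidermal cells of 2 juvenile pigs, 88R and 95R, each of which gave 1 LGR5-high library (GFP-hi in the labels) and 1 LGR5-negative library (GFP-neg). Both pigs carried LGR5-H2B-GFP, a knock-in that places a histone-linked GFP in exon 1 on a single LGR5 allele. The line was founded from clonal cells by nuclear transfer, and the LGR5-negative cells carry the same allele and are no wild type control. Hair and epidermis were separated from the dermis with dispase, dissociated with trypsin and sorted live by GFP. The study asked which genes mark LGR5-expressing hair follicle stem cells, and the comparison of the potassium channel genes is the one the sort allows, LGR5-high against LGR5-negative.

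Potassium channels are pores that let potassium ions cross the membrane down their gradient. They set the resting membrane potential, end electrical signals and move potassium and water across epithelia. Voltage-gated channels open on depolarization, calcium- and sodium-activated channels open when the ion they sense rises in the cell, inward rectifiers pass current more easily into the cell than out of it, and tandem-pore (K2P) channels carry a background leak. Auxiliary subunits form no pore but change the gating or the traffic of the pore subunits. Keratinocytes and hair follicle cells are not classical excitable cells, but skin epithelium is known to hold channels of several of these families.

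Each library held between 30890232 and 32598670 counts. Paired values are given with pig 88R first and pig 95R second. LGR5, whose promoter drives the sorted reporter, had 4551 and 6224 counts in LGR5-high, and 36 and 109 in LGR5-negative. The keratinocyte marker KRT5 did not pass the test, with levels of 23664 and 25491 CPM (counts scaled to the TMM-adjusted library total) in LGR5-high and of 29558 and 26128 CPM in LGR5-negative. All 4 suprabasal keratinocyte markers were lower in LGR5-high, with a sum between 5014 and 5587 CPM against 54948 to 63970 CPM. Markers of other cells differed as well. Of the 7 melanocyte genes 5 were lower in LGR5-high, where the sum was 62.5 and 62.6 CPM, against 85.0 and 261 CPM in LGR5-negative. Of the 5 Langerhans or immune genes 4 were lower, with 7.51 to 10.5 CPM against 123 to 178 CPM, and CD1E was at 0 everywhere. Of the 5 endothelial genes 4 were lower, with 6.11 to 7.48 CPM against 20.8 to 20.9 CPM, and of the 5 fibroblast genes 4 were lower and COL1A1 was higher, with sums of 231 to 448 CPM and of 224 to 346 CPM. Of the 5 nerve or Schwann genes 2, NCAM1 and S100B, were higher in LGR5-high, with 13.3 to 18.6 CPM against 0.983 to 3.01 CPM, while CDH19 was at 0 everywhere. Of the 4 sweat gland genes 3 were higher, with 102 to 127 CPM against 4.42 to 7.64 CPM. KRT8 and KRT19 made up most of this sum, AQP5 held at most 0.666 CPM in any library, and KRT18 did not pass. The paper reports that AQP5 staining was not specific in skin and overlapped in part with LGR5-H2BGFP cells. The 7 pericyte or smooth muscle genes summed to 387 and 400 CPM in LGR5-high and to 555 and 652 CPM in LGR5-negative, with 4 higher and 1, NOTCH3, which made up most of the sum, lower. The 3 Merkel cell genes held at most 1.03 CPM together in any library and none was tested. The part of such cells in the results below was not tested unless a value is given. In these bulk samples, fewer cells of a type and less RNA per cell cannot be told apart.

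Genes of both directions were found among the potassium channels. KCNMA1, KCNN1, KCND1 and KCNK2 were among those higher in LGR5-high, and KCNJ3, KCNMB1, KCNK1 and KCNK5 among those lower. At an adjusted p-value under 0.05 in edgeR's quasi-likelihood test, 18 of the 48 tested KCN genes were higher in LGR5-high, which is 37.5%, against 22.7% of all 15980 tested genes. Another 11 were lower, which is 22.9%, a share near the 22.0% of all tested genes. The remaining 19 did not pass. Of the 18 higher genes 10 reached 10 counts in the LGR5-high libraries alone, so that they entered the test through the population in which they were high. With at least 10 counts required in every library, 4 of 25 KCN genes were higher (16.0%, against 21.9% of all genes so tested) and 9 were lower (36.0%, against 22.0%), so the larger share of higher genes was not kept. The median log2 fold change of the 48 genes was 0.32, beside 0.02 for all tested genes, but the genes tested are those with enough counts in at least one population, so neither the median nor the share stands for all 94. The number of lower genes fell to 6 without the LGR5-high library of pig 88R and to 7 without that of pig 95R, while the number of higher genes stayed between 16 and 19 when each library was left out. The summed level of all 94 genes was 350 and 373 CPM in LGR5-high and 379 and 388 CPM in LGR5-negative. The plot of levels by library shows the 29 genes that passed. The test picked them on these same libraries, so a gap between the populations there is no further result.

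**Figure D1:**
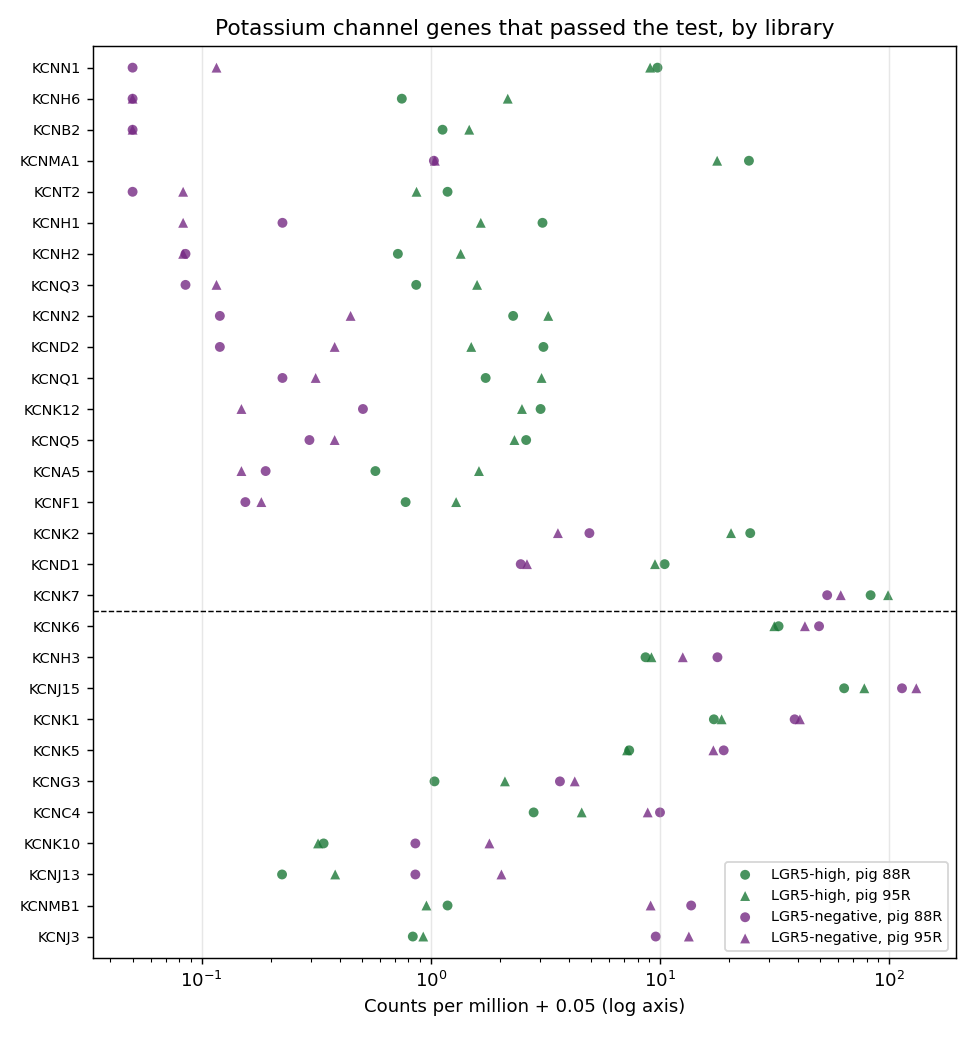
CPM plus 0.05 on a log axis for the 29 potassium channel genes that passed the test, with 1 point for each library (green LGR5-high, purple LGR5-negative, circles pig 88R, triangles pig 95R). The 18 genes above the dashed line were higher and the 11 below it lower in LGR5-high, and KCNN1, KCNH6 and KCNB2 at the top lie at or near 0 in LGR5-negative.

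The counts by role were as follows. Among the 22 tested voltage-gated pore genes 11 were higher and 3 lower, and among the 6 calcium- or sodium-activated pore genes 4 were higher and none lower. None of the 6 inward rectifier genes was higher and 3 were lower. The 7 tested tandem-pore genes passed, 3 higher and 4 lower, and of the 7 auxiliary genes 1 was lower and none higher. These counts of none (calcium- or sodium-activated genes lower, inward rectifier and auxiliary genes higher) were 0 also at an unadjusted p under 0.05 in edgeR, and 0 by DESeq2 and limma-voom at an adjusted p under 0.05. The medians of the log2 fold change were 1.72, 3.96, -0.44, -0.52 and 0.04 in the order voltage-gated, calcium- or sodium-activated, inward rectifier, tandem-pore and auxiliary. The summed level of the calcium- or sodium-activated pore genes was 38.9 and 32.7 CPM in LGR5-high and 2.42 and 2.71 CPM in LGR5-negative. For the voltage-gated genes the sums were 43.8 and 49.5 CPM against 40.0 and 35.0 CPM, for the tandem-pore genes 169 and 180 CPM against 167 and 168 CPM, and for the inward rectifiers 86.45 and 98.05 CPM against 145 and 162 CPM. No test of one role against another was made. Of all tested genes 22.7% were higher and 22.0% lower. The 10 higher genes that reached 10 counts in the LGR5-high libraries alone all belong to the voltage-gated or the calcium- or sodium-activated role. They entered the test through the population in which they were high, so the counts and medians of these roles carry that limit. In the plot of fold changes by role the voltage-gated genes span both sides of 0.

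**Figure D2:**
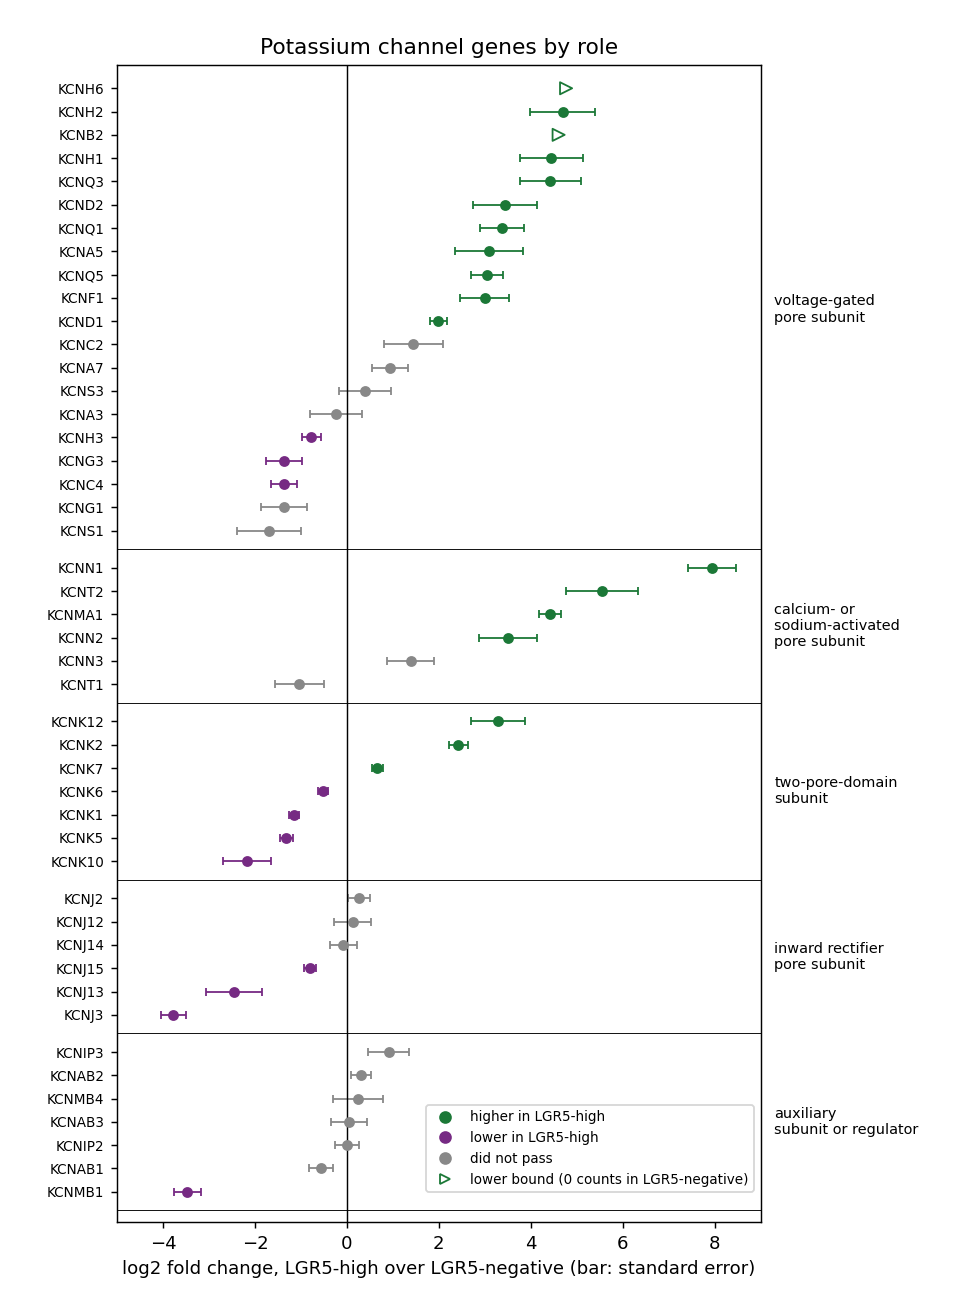
Log2 fold change of LGR5-high over LGR5-negative with its standard error for 46 of the 48 tested potassium channel genes, grouped by role (green higher, purple lower, grey did not pass). Open triangles are lower bounds for KCNB2 and KCNH6, which had 0 counts in both LGR5-negative libraries, and the inward rectifiers lie at or left of 0.26.

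The calcium-activated channels of small conductance (SK channels, genes KCNN1 to KCNN3) and of large conductance (BK channel, gene KCNMA1) open when calcium rises in the cell. KCNN1 had 334 and 298 counts in LGR5-high, and 0 and 2 counts in LGR5-negative. Its RNA was thus almost absent from the LGR5-negative libraries of both pigs. The ratio of the population sums was 275 (95% exact interval 75.9 to 2277, covering counting error only), with an adjusted p of 2.33e-04 in edgeR's quasi-likelihood test. Without the LGR5-negative library of pig 88R the log2 fold change of KCNN1 was 7.06 (7.95 with all libraries), and without that of pig 95R it was 11.2, fitted against 0 counts. KCNN2 had 77 and 106 counts in LGR5-high, and 2 and 12 counts in LGR5-negative. The populations did not overlap, but the test picked KCNN2 on these same libraries. Its log2 fold change in edgeR was 3.50 (standard error 0.637, adjusted p = 0.00741). It was 2.76 and 5.19 when the LGR5-negative library of pig 88R or 95R was left out. KCNN3 had 25 and 56 counts in LGR5-high, and 13 and 14 counts in LGR5-negative. Its log2 fold change of 1.39 (standard error 0.518) had an adjusted p of 0.0759, with the pig as a replicate block an adjusted p of 0.0188, and without the LGR5-high library of pig 88R one of 0.0472, in a range of 0.0188 to 0.441 over the 12 alternatives. The intermediate-conductance relative KCNN4, which is known from immune cells and red blood cells, was below the limit of 10 counts, with 4 and 0 counts in LGR5-high and 6 and 2 in LGR5-negative.

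KCNMA1 had 840 and 586 counts in LGR5-high, and 28 and 30 counts in LGR5-negative. Both pigs showed the same order, and the 2 LGR5-negative libraries were nearly equal at 0.983 and 0.993 CPM. On the log2 scale the difference was 4.41 (standard error 0.239, adjusted p = 1.31e-04), which is 21.3-fold. The beta subunit KCNMB1, which raises the calcium sensitivity of the BK channel and is best known from smooth muscle, went the other way. It had 39 and 30 counts in LGR5-high, and 389 and 274 counts in LGR5-negative. The fitted log2 difference came to -3.47 (standard error 0.297, adjusted p = 5.10e-04), so the pore gene and this auxiliary gene were on opposite sides in both pigs. The span of KCNMB1 overlaps that of KCNIP1 in the Sscrofa11.1 annotation of RefSeq, and since the strand setting of the counting is not given in the sources used here, reads of overlapping genes may not be told apart. KCNIP1 itself held between 6 and 14 counts in every library. Another beta subunit gene, KCNMB4, had 41 and 28 counts in LGR5-high, and 36 and 14 counts in LGR5-negative, and its populations overlapped. KCNMB2 and KCNMB3 were below the limit, with at most 24 and 4 counts in any library. Of the 7 pericyte or smooth muscle markers, ACTA2, CNN1, MYH11 and RGS5 were higher in LGR5-high, NOTCH3 was lower (log2 fold change -0.67, adjusted p = 0.00403) and carried most of the summed level given above, PDGFRB did not pass and DES held at most 2 counts in any library. KCNMA1 also shares its span with a long noncoding RNA gene of 19 and 17 counts in LGR5-high and 0 and 1 in LGR5-negative.

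The sodium-activated channels KCNT1 and KCNT2 open when sodium rises in the cell. KCNT2 had 39 and 27 counts in LGR5-high, and 0 and 1 counts in LGR5-negative. All but 1 of its counts therefore lay in the LGR5-high libraries. The ratio of the sums was 57.5 (95% exact interval 9.96 to 2304) with an adjusted p of 0.00295, and the fitted log2 fold change of 5.55 became 4.72 without the LGR5-negative library of pig 88R, and 7.97, fitted against 0 counts, without that of pig 95R. KCNT1 had 17 and 6 counts in LGR5-high, and 20 and 21 counts in LGR5-negative, and did not pass (adjusted p = 0.172).

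The KCNH, KCNQ and KCND families held 8 of the 11 higher voltage-gated genes. In the KCNH family, which takes in the ether-a-go-go (EAG) and hERG channels, KCNH1, the EAG channel also known from tumours, had 104 and 53 counts in LGR5-high, and 5 and 1 counts in LGR5-negative. edgeR put the log2 difference at 4.44 (standard error 0.688, adjusted p = 0.00417), and it was 5.97 and 3.68 without the LGR5-negative library of pig 88R and of pig 95R. KCNH2, the hERG channel that repolarizes the heart, had 23 and 43 counts in LGR5-high, and 1 and 1 counts in LGR5-negative. The ratio of its sums was 28.7 (95% exact interval 7.65 to 242, adjusted p = 0.00375). KCNH6, a close relative of KCNH2, had 24 and 70 counts in LGR5-high, and 0 and 0 counts in LGR5-negative. It was at least 27.3-fold higher in LGR5-high, taking 3 counts over the LGR5-negative population as the limit (adjusted p = 0.00913). Without the LGR5-high library of pig 95R, which held most of its counts, the fitted log2 fold change of KCNH6 went from 8.47 to 7.45 with an adjusted p of 0.0342, in a range of 2.71e-06 to 0.201 over the 11 alternatives. KCNH8 had 10 and 23 counts in LGR5-high, and 4 and 6 counts in LGR5-negative, and was not tested because it did not pass edgeR's filter on low counts.

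KCNH3, of the ELK branch of the same family, was lower in LGR5-high. It had 296 and 302 counts in LGR5-high, and 507 and 379 counts in LGR5-negative, or 8.88 ± 0.376 CPM against 15.2 ± 3.71 CPM (SD, n = 2 pigs). This was a log2 fold change of -0.77 (standard error 0.201, adjusted p = 0.0252). This call was lost in some fits that left out a library. The log2 fold change was -0.74 without the LGR5-high library of pig 88R and -0.81 without that of pig 95R. It was -0.51 without the LGR5-negative library of pig 88R. Leaving out the LGR5-high library of pig 88R or 95R, or the LGR5-negative library of pig 88R, gave adjusted p-values of 0.110, 0.0999 and 0.0817, in a range of 7.75e-04 to 0.190 over the 12 alternatives, and with library size only the adjusted p was 0.0640.

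The KCNQ genes code for slowly activating channels, of which KCNQ1 acts in heart and epithelia and KCNQ3 and KCNQ5 carry the M-current of neurons. KCNQ1 had 58 and 99 counts in LGR5-high, and 5 and 8 counts in LGR5-negative, with a log2 fold change of 3.38 (standard error 0.483, adjusted p = 0.00314). KCNQ5 had 88 and 75 counts in LGR5-high, and 7 and 10 counts in LGR5-negative, with a log2 fold change of 3.05 (standard error 0.354, adjusted p = 0.00144). KCNQ3 had 28 and 51 counts in LGR5-high, and 1 and 2 counts in LGR5-negative, and the ratio of its sums was 22.9 (95% exact interval 7.57 to 114, adjusted p = 0.00364). In all 3 genes each LGR5-high library lay above both LGR5-negative libraries, but the test that picked them used these same libraries. KCNQ1 and KCNQ3 also reached 10 counts in the LGR5-high libraries alone, and so entered the test through them. The KCNE genes, whose products join KCNQ1 and other pore subunits, were all below the limit of 10 counts in 2 libraries, and none of the 5 had more than 9 counts in any library. KCNQ1 shares its span with a long noncoding RNA gene of 89 and 93 counts in LGR5-high and 31 and 26 counts in LGR5-negative, which was higher as well (log2 fold change 1.47).

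The KCND genes code for the pores of the transient A-type current (Kv4 channels). KCND1 had 359 and 313 counts in LGR5-high, and 69 and 78 counts in LGR5-negative. Its level was 9.96 ± 0.685 CPM against 2.501 ± 0.113 CPM (SD, n = 2 pigs), with a log2 fold change of 1.99 (standard error 0.188, adjusted p = 7.07e-04). The replicates of both populations were close. KCND2 had 105 and 48 counts in LGR5-high, and 2 and 10 counts in LGR5-negative. On the log2 scale the difference was 3.45 (standard error 0.700, adjusted p = 0.0109), and the pigs were far apart (4.54 and 1.94). Without the LGR5-high library of pig 88R it was 2.81 and did not pass (adjusted p = 0.0582, in a range of 4.41e-05 to 0.152 over the 11 alternatives), and without the LGR5-negative library of pig 88R or 95R it was 2.75 or 4.92. KCND3 had at most 10 counts in any library. Of the calcium-binding partners of these pores, KCNIP2 had 77 and 64 counts in LGR5-high, and 59 and 64 counts in LGR5-negative, with overlapping populations (adjusted p = 0.992). KCNIP3 had 23 and 35 counts in LGR5-high, and 10 and 17 counts in LGR5-negative (adjusted p = 0.156), and KCNIP1 and KCNIP4 were below the limit. DPP6, a membrane protein that assembles with Kv4 channels, was lower in LGR5-high, with 30 and 10 counts in LGR5-high and 112 and 104 counts in LGR5-negative. The fitted log2 difference came to -2.63 (standard error 0.487, adjusted p = 0.00784), and -3.60 without the LGR5-high library of pig 88R. The plot of pore subunits beside their partners shows DPP6 opposite to KCND1 and KCND2, and KCNMB1 opposite to KCNMA1. The split holds for these partners only. KCNIP2, KCNIP3 and KCNMB4 did not pass, with log2 fold changes of -0.0036, 0.91 and 0.25.

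**Figure D3:**
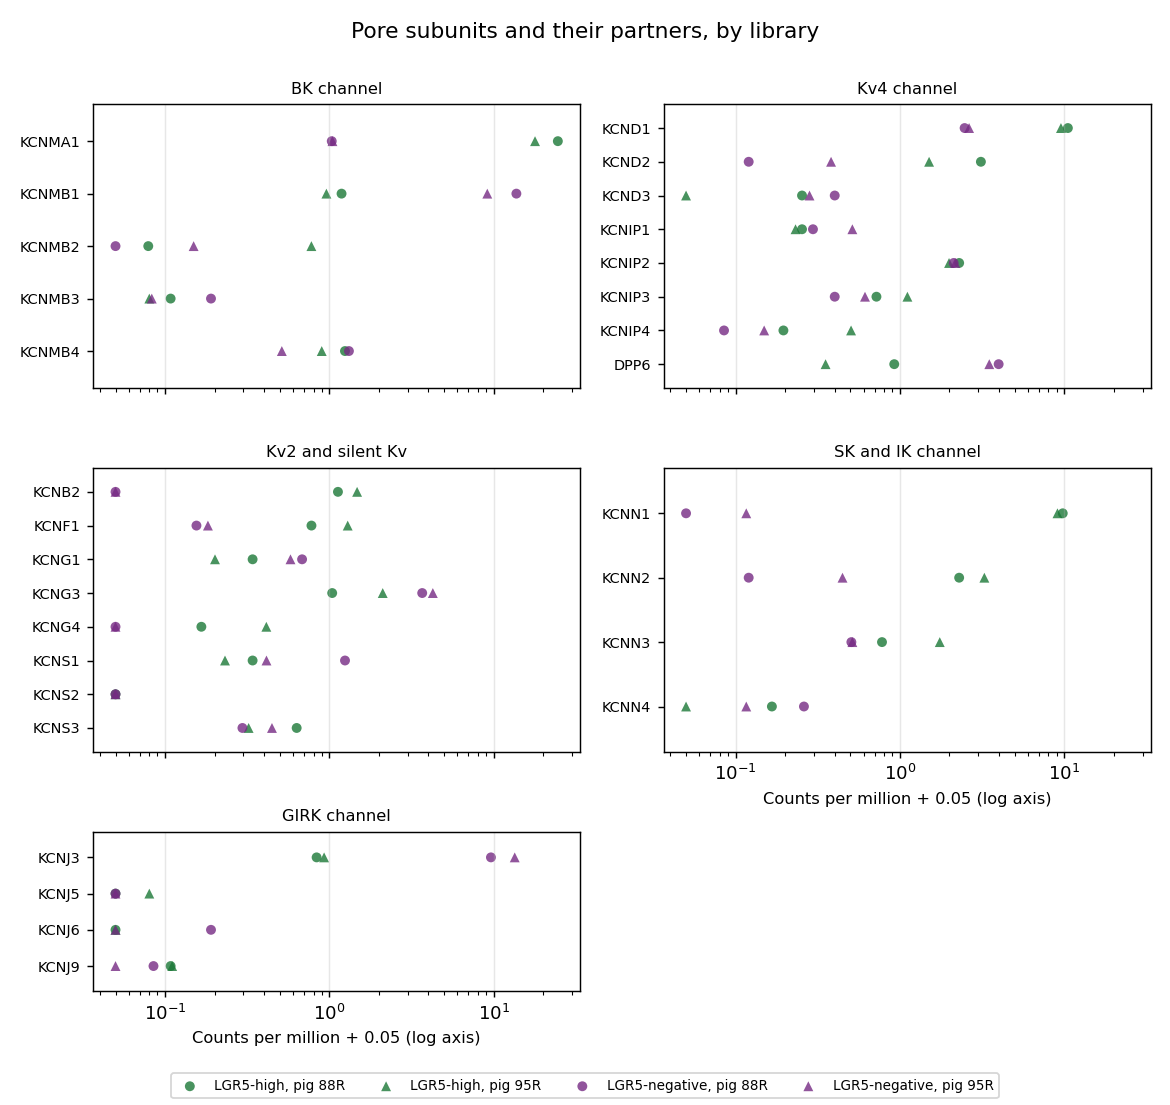
CPM plus 0.05 on a log axis for the pore and partner genes of 5 kinds of potassium channel, with 1 point for each library (green LGR5-high, purple LGR5-negative, circles pig 88R, triangles pig 95R). KCNMA1, KCND1 and KCND2 lie to the right in LGR5-high while their partners KCNMB1 and DPP6 lie to the right in LGR5-negative. The partners KCNIP2, KCNIP3 and KCNMB4 did not pass the test. The GIRK partners of KCNJ3 lie near the left edge in all libraries.

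The delayed rectifier KCNB2 and the electrically silent subunits of the KCNF, KCNG and KCNS families belong together, since the silent subunits form working channels only with pores of the KCNB family. KCNB2 had 37 and 47 counts in LGR5-high, and 0 and 0 counts in LGR5-negative, and was at least 24.4-fold higher in LGR5-high (adjusted p = 0.00223). KCNF1 had 25 and 41 counts in LGR5-high, and 3 and 4 counts in LGR5-negative. edgeR put the log2 difference at 3.003 (standard error 0.535, adjusted p = 0.00686), and without the LGR5-high library of pig 95R it was 2.58 with an adjusted p of 0.0601, in a range of 2.41e-04 to 0.125 over the 11 alternatives. The silent subunit KCNG3 was lower, with 34 and 68 counts in LGR5-high, and 103 and 127 counts in LGR5-negative. The log2 fold change of KCNG3 was -1.36 (standard error 0.388, adjusted p = 0.0340). It was -0.93 without the LGR5-high library of pig 88R (adjusted p = 0.108), -1.97 without that of pig 95R, and -1.26 without the LGR5-negative library of pig 95R (adjusted p = 0.0757). Over the 12 alternatives its adjusted p lay between 4.81e-04 and 0.178. KCNG1 had 10 and 5 counts in LGR5-high, and 18 and 16 counts in LGR5-negative, and KCNS1 had 10 and 6 counts against 34 and 11. Neither passed, with adjusted p-values of 0.0698 and 0.0963, but with the replicate block they were 0.0416 and 0.0157, in ranges of 0.0416 to 0.336 and 0.0157 to 0.567 over the 11 alternatives. Without the LGR5-negative library of pig 95R, KCNS1 passed as well (log2 fold change -2.32, adjusted p = 0.0228). KCNS3 overlapped between the populations, with 20 and 9 counts in LGR5-high, and 7 and 12 counts in LGR5-negative.

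The KCNA and KCNC genes code for delayed and fast voltage-gated pores. KCNA5, known from the atrium of the heart, had 18 and 52 counts in LGR5-high, and 4 and 3 counts in LGR5-negative. This was a log2 fold change of 3.09 (standard error 0.742, adjusted p = 0.0193), but it was 2.10 without the LGR5-high library of pig 95R, which held most of its counts (adjusted p = 0.115), and 2.85 without the LGR5-negative library of that pig (adjusted p = 0.0612). The adjusted p of KCNA5 lay between 4.27e-04 and 0.259 over the 11 alternatives. KCNA3, best known from T cells, had 16 and 15 counts in LGR5-high, and 8 and 24 counts in LGR5-negative, and KCNA7 had 38 and 33 counts against 19 and 13, and neither passed. KCNC4, a fast inactivating pore, was lower, with 95 and 149 counts in LGR5-high, and 284 and 266 counts in LGR5-negative. On the log2 scale the difference was -1.37 (standard error 0.273, adjusted p = 0.0103). KCNC2 had 19 and 28 counts in LGR5-high, and 3 and 12 counts in LGR5-negative, with an adjusted p of 0.116, or 0.0249 with the replicate block and 0.0437 (log2 fold change 2.68) without the LGR5-negative library of pig 95R, in a range of 0.0249 to 0.404 over the 11 alternatives. Of the cytoplasmic beta subunits that bind KCNA pores, KCNAB2 had 123 and 137 counts in LGR5-high, and 86 and 97 counts in LGR5-negative (log2 fold change 0.31, standard error 0.225, adjusted p = 0.307). KCNAB1 had 58 and 61 counts in LGR5-high, and 71 and 83 counts in LGR5-negative (log2 fold change -0.57, standard error 0.258, adjusted p = 0.126). KCNAB3 had between 17 and 28 counts in every library.

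Of the 15 tandem-pore genes, which code for leak channels, 7 were tested and passed, 3 higher and 4 lower. The calls of KCNK10 and KCNK6 were lost in some fits that left out a library. KCNK2, the TREK channel that opens on stretch, heat and lipids, had 851 and 674 counts in LGR5-high, and 139 and 107 counts in LGR5-negative. The fitted log2 difference came to 2.42 (standard error 0.209, adjusted p = 5.20e-04), or 5.37-fold, and the pigs were close (2.33 and 2.51). Its close relative KCNK10, which also belongs to the TREK channels, was lower instead. It had 10 and 9 counts in LGR5-high, and 23 and 53 counts in LGR5-negative, with a log2 fold change of -2.17 (standard error 0.519, adjusted p = 0.0190). This call was lost without the LGR5-high library of pig 88R (-2.22, adjusted p = 0.0907) or of pig 95R (-2.12, adjusted p = 0.106), and without the LGR5-negative library of pig 95R (-1.51, adjusted p = 0.0923), in a range of 0.00116 to 0.211 over the 11 alternatives. KCNK12, of the THIK branch, had 102 and 81 counts in LGR5-high, and 13 and 3 counts in LGR5-negative. edgeR put the log2 difference at 3.28 (standard error 0.590, adjusted p = 0.00709), and 4.71 and 2.55 without the LGR5-negative library of pig 88R and of pig 95R. KCNK12 shares its span with a long noncoding RNA gene that was higher as well (log2 fold change 2.59). That gene had 34 and 37 counts in LGR5-high and 8 and 2 counts in LGR5-negative. KCNK7, for which no current of its own is known, had 2857 and 3272 counts in LGR5-high, and 1530 and 1860 counts in LGR5-negative. This was 91.1 ± 11.3 CPM against 57.6 ± 5.56 CPM (SD, n = 2 pigs), a 1.58-fold difference (log2 fold change 0.66, standard error 0.122, adjusted p = 0.00775).

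The other tandem-pore genes were lower in LGR5-high by modest folds. KCNK1, of the TWIK branch, had 590 and 613 counts in LGR5-high, and 1103 and 1233 counts in LGR5-negative. Its level of 17.9 ± 0.985 CPM against 39.8 ± 1.48 CPM (SD, n = 2 pigs) differed far beyond the spread between pigs, with a log2 fold change of -1.15 (standard error 0.107, adjusted p = 6.71e-04). KCNK5, a TASK channel opened by alkaline pH, had 251 and 236 counts in LGR5-high, and 540 and 516 counts in LGR5-negative, with a log2 fold change of -1.32 (standard error 0.138, adjusted p = 0.00103). KCNK6, also of the TWIK branch, had 1132 and 1042 counts in LGR5-high, and 1410 and 1297 counts in LGR5-negative. This was a log2 fold change of -0.52 (standard error 0.110, adjusted p = 0.0125). The call of KCNK6 was lost without the LGR5-high library of pig 88R (-0.56, adjusted p = 0.0526) or of pig 95R (-0.48, adjusted p = 0.0782) and with library size only (adjusted p = 0.0669), in a range of 5.58e-04 to 0.113 over the 12 alternatives. The summed level of the family, given above, therefore hid differences of single genes in both directions.

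Of the inward rectifiers, KCNJ3 had the largest difference. It codes for a subunit of the GIRK channels, which G proteins open after a receptor is activated. KCNJ3 had 27 and 29 counts in LGR5-high, and 272 and 403 counts in LGR5-negative. The 2 LGR5-high libraries were close, at 0.832 ± 0.0654 CPM, against 11.4 ± 2.68 CPM in LGR5-negative (SD, n = 2 pigs). On the log2 scale the difference was -3.78 (standard error 0.268, adjusted p = 2.83e-04), or 13.7-fold lower, and it stayed between -4.00 and -3.52 when each library was left out. The genes of the subunits that KCNJ3 joins, KCNJ5, KCNJ6 and KCNJ9, held at most 4 counts in any library. KCNJ15, an inward rectifier known from kidney, had 2189 and 2577 counts in LGR5-high, and 3247 and 3976 counts in LGR5-negative. The fitted log2 difference came to -0.79 (standard error 0.129, adjusted p = 0.00502).

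KCNJ13, which is known from epithelia and from the pigment epithelium of the eye, had 6 and 11 counts in LGR5-high, and 23 and 60 counts in LGR5-negative. The populations were apart in the same libraries that the test used, and the LGR5-negative library of pig 95R held the most counts. edgeR put the log2 difference at -2.45 (standard error 0.613, adjusted p = 0.0221). It was -2.06 and -2.97 without the LGR5-high library of pig 88R and of pig 95R (adjusted p = 0.115 and 0.0683), and -1.67 without the LGR5-negative library of pig 95R (adjusted p = 0.0943), in a range of 2.71e-04 to 0.234 over the 11 alternatives. The summed melanocyte markers were also highest in that library, at 261 CPM against 85.0 CPM in the LGR5-negative library of pig 88R, and so was KCNK10 above. Other marker lists were highest there too, among them the Langerhans or immune list, at 178 CPM against 123 CPM. The part of melanocytes or of other cells in KCNJ13 and KCNK10 was not tested. KCNJ13 overlaps GIGYF2, a gene of 2378 to 3075 counts per library with a log2 fold change of -0.43.

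The remaining inward rectifiers did not pass. KCNJ2, a classical rectifier that holds the resting potential of muscle, had 565 and 469 counts in LGR5-high, and 444 and 301 counts in LGR5-negative (log2 fold change 0.26, standard error 0.233, adjusted p = 0.397). Without the LGR5-negative library of pig 88R it was 0.61 with an adjusted p of 0.0450, in a range of 0.0450 to 0.898 over the 12 alternatives. KCNJ14 had 137 and 83 counts in LGR5-high, and 95 and 107 counts in LGR5-negative (log2 fold change -0.08, standard error 0.293, adjusted p = 0.841). KCNJ12 had 26 and 44 counts against 25 and 31. Its annotated span overlaps another gene model and a pseudogene, both at 0 counts in every library. No sequences were compared, so whether KCNJ12 shares reads with them is uncertain. In all 3 the populations overlapped in CPM. The pores of the ATP-sensitive channel, KCNJ8 and KCNJ11, held at most 9 counts in any library.

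The 45 KCN genes below the limit were 10 with 0 counts in every library and 35 with some counts. Those at 0 were KCNA10, KCNE2, KCNJ1, KCNK16, KCNK17, KCNK18, KCNS2, KCNU1, KCNV1 and KCNV2, and a count of 0 allows a level of up to 0.105 CPM in the LGR5-negative library of pig 88R, where the limit of 3 counts is highest. Just inside the rule stood 12 genes with exactly 2 libraries at 10 or more counts, among them KCNB2, KCNH6, KCNN1 and KCNT2, for which these were the LGR5-high libraries. Just outside stood 6 genes with 1 such library, among them KCND3, KCNG4, KCNIP1, KCNIP4 and KCNMB2. KCNG4 had 4 and 12 counts in LGR5-high and 0 and 0 in LGR5-negative.

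The fold changes of each pig, computed from its own pair of libraries, are given by the plot of one pig against the other. KCNMA1 had 4.55 and 4.08, KCNN1 7.27 and 6.13, KCNK1 -1.17 and -1.13, and KCNJ3 -3.50 and -3.83. The pigs differed most among the genes that passed in KCND2, with 4.54 and 1.94, and in KCNA5, with 1.53 and 3.33. With 1 pair of libraries in each pig, no test of a difference between the pigs can be made.

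**Figure D4:**
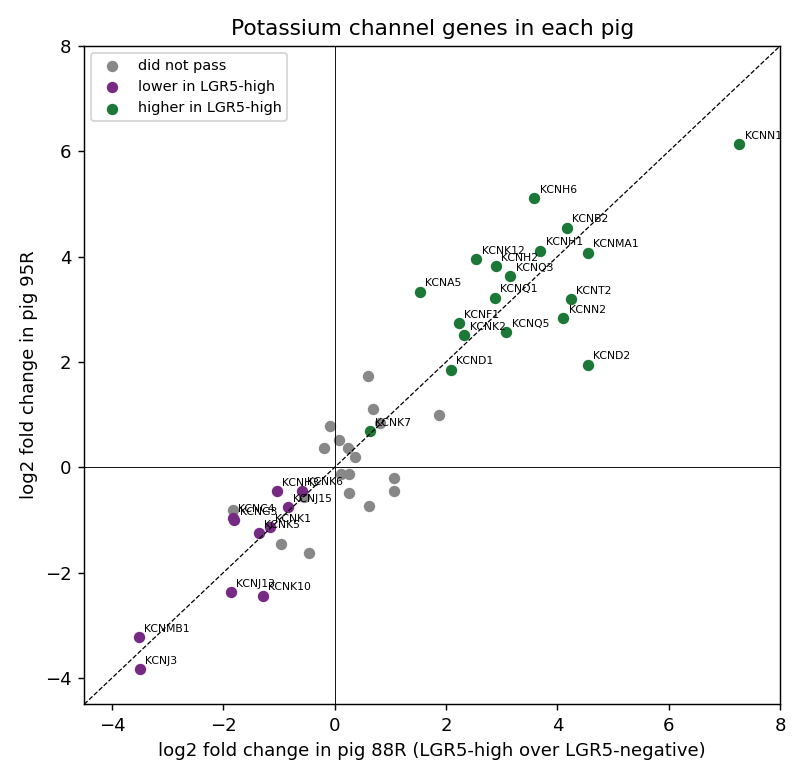
Log2 fold change of LGR5-high over LGR5-negative in pig 88R (horizontal) and pig 95R (vertical) for the 48 tested potassium channel genes, with a prior count of 2 and a dashed line where both pigs are equal. Of the 48 genes 40 had the same sign in both pigs, among them all 29 that passed, which were picked by the test on these same libraries. KCND2 and KCNA5 lie farthest from the line among the genes named in the text for a difference between pigs.

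The genes that pump or cotransport potassium, or that join its channels without a KCN name, were read in the same fit. Of the 39 genes on this list 2 were not analysed here and 26 were tested. Of these 12 were higher, which is 46.2% against 22.7% of all tested genes, 2 were lower, which is 7.7% against 22.0%, and 12 did not pass. The median log2 fold change of the 26 was 0.59. Beta subunit genes of the sodium pump, which builds the potassium gradient, were higher. ATP1B1 had 19764 and 14823 counts against 9447 and 9574, with a log2 fold change of 0.66 (standard error 0.131, adjusted p = 0.0101). ATP1B3 had 7508 and 7767 counts against 2013 and 2772, with a log2 fold change of 1.48 (standard error 0.138, adjusted p = 6.83e-04). ATP1B2 had 146 and 104 counts against 24 and 10, with a log2 fold change of 2.66 (standard error 0.467, adjusted p = 0.00655) and of 3.46 without the LGR5-negative library of pig 88R. ATP12A, the catalytic subunit of a proton-potassium pump, had 220 and 274 counts in LGR5-high, and 16 and 10 counts in LGR5-negative (log2 fold change 4.04, standard error 0.343, adjusted p = 5.03e-04). Of the small pump regulators, FXYD6 had 2430 and 1875 counts against 320 and 417, with a log2 fold change of 2.35 (adjusted p = 2.66e-04). FXYD2 had 30 and 21 counts against 294 and 161, with a log2 fold change of -3.36 (adjusted p = 0.00184).

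The cotransporter SLC12A2 (NKCC), which loads cells with sodium, potassium and chloride, had 6521 and 4123 counts in LGR5-high, and 1562 and 1406 counts in LGR5-negative. This was a log2 fold change of 1.63 (standard error 0.210, adjusted p = 0.00213). TMEM38A, which codes for a cation channel of the calcium store, had 471 and 608 counts against 55 and 73, with a log2 fold change of 2.88 (standard error 0.233, adjusted p = 4.27e-04). In both genes each LGR5-high library lay above both LGR5-negative libraries, but the test that picked them used these same libraries.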

How the data were processed

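Sorted cells of each pig gave poly(A) libraries with paired reads. The deposited values are raw counts for each gene symbol, made by the authors, and Trimmomatic 0.36, STAR 2.5.2b, featureCounts and Subread 1.5.2 are listed in the submitters' processing notes. The genome build and the strand setting are not given in the sources used here. All 4 columns were used, and 1 entry without a name (0.360% to 0.626% of the counts) was left out. All 94 KCN names matched the RefSeq table of Sscrofa11.1, used only for names and overlaps, and 2 genes on unplaced sequence (KCNT1 and KCNT2) were not checked for overlap. Sequences and transcript lengths were not used here, so levels are not compared between genes.

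The populations were tested with edgeR 4.0.16 in R 4.3.3 (filterByExpr with a minimum count of 10, TMM, quasi-likelihood test, no covariate, 2-sided, Benjamini-Hochberg adjustment over 15980 genes, threshold 0.05). Standard errors are the log2 fold change divided by the root of the F statistic. Per-pig fold changes were taken with a prior count of 2, and 95% intervals of ratios are exact binomial (Clopper-Pearson) and take in counting error alone, because reads copied by PCR are not separate molecules. The libraries share a pig across populations, and same-pig libraries deviated together (correlation 0.370). The scripts were tested on simulated data. Members, lists and tests were chosen with earlier results of these data known. All KCN genes at the limit are named, with full values for those that passed and for the 6 others of highest mean CPM; of the partner list, the 5 largest changes in each direction among those that passed and a few set genes (ATP1B1, ATP1B3 and SLC12A2 among them). Alternatives were other scalings (DESeq2 1.42.0 size factors, library size only), other filters, the pig as a replicate block, DESeq2, limma-voom (limma 3.58.1), Student's t-test, which the study's methods name, on log2(CPM + 1), a scale chosen here, and leaving out each library. Some genes that this rule takes in are not reported here. Plots were drawn with matplotlib 3.10.9.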

Additional observations from a re-analysis of the deposited data

How the results depend on the processing

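With the DESeq2 size factors, all genes with at least 1 count, DESeq2 and limma-voom, all 48 tested KCN genes kept their side of the threshold, and no gene that passed reversed under any of the 12 alternatives. The pig as a replicate block gave 20 higher (41.7%, against 28.5% of all tested genes) and 13 lower KCN genes (27.1%, against 27.2%), 4 more than without the block (KCNC2, KCNN3, KCNG1 and KCNS1), and 4 lower partner genes in place of 2, and changed no other KCN call. Requiring at least 10 counts in every library left 25 KCN genes to test, 4 higher and 9 lower in place of 18 and 11, since genes near 0 in LGR5-negative drop out. Student's t-test on log2(CPM + 1) kept 3 higher (KCND1, KCNN1 and KCNQ5) and 0 lower KCN genes, with 12 and 7 at an unadjusted p under 0.05, and 1 higher and 0 lower partner genes, with 11 and 2 unadjusted, and the cause was not tested. In edgeR, DESeq2 and limma-voom the lower KCN genes were 11. Leaving out each library in turn gave between 16 and 19 higher and between 6 and 10 lower KCN genes, where a population of 1 library is assumed to vary like the other. Of the 29 genes that passed, 21 kept their call, the t-test aside, in every setting in which they were tested. Many of these 21, among them KCNN1, KCNB2, KCNH6 and KCNT2, drop out when 10 counts are required in every library. Their calls were therefore not tested under that filter. With library size only the median over all tested genes moved from 0.02 to 0.24 (log2), KCNG3, KCNH3 and KCNK6 lost their calls and KCNN3 passed. Counts under about 10 per library limit what can be said of the lowest genes.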
